A study of Mus musculus with 24 samples.

Results

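Hepatokines are proteins that the liver secretes into the blood and that act on other organs. The 10 genes described here were chosen by symbol, as secreted metabolic or growth regulators made in the liver: Fgf21, Gdf15, Angptl4, Lect2, Enho, Igfbp1, Igfbp2, Inhbe, Inhba and Fst. All 10 of 10 were found among 24339 genes, each with 1 entry per table, and all 10 were among the 12282 genes tested.

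The libraries came from livers of C57BL/6 mice of 8 groups with 3 replicates each. Wild type mice were given corn oil or TCPOBOP, an agonist of mouse CAR, while hCAR-TG mice, which carry human CAR as a knock-in, were given corn oil or CITCO, an agonist of the human receptor. Both genotypes were sampled at day 5 (newborn) and day 60 (adult). The wild type and hCAR-TG treatments thus differ in receptor and ligand at once. The labels state no dose and do not tell whether each replicate is its own animal. The p-values therefore cover the spread of these libraries alone, which may be technical.

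CAR, the product of Nr1i3, is a nuclear receptor of hepatocytes that senses drugs and other foreign compounds and switches on detoxifying genes such as Cyp2b10. As background, the secreted proteins studied here are known from other settings. FGF21 is a hormone of fasting and amino acid shortage that acts through FGF receptors with the co-receptor beta-Klotho (Klb). GDF15 is a stress hormone that lowers food intake through a receptor of the hindbrain. ANGPTL4 inhibits lipoprotein lipase. LECT2 is a hepatocyte protein first known for attracting neutrophils, and Enho encodes adropin, a peptide linked to lipid and glucose metabolism. IGFBP1 and IGFBP2 bind insulin-like growth factors in the blood, and Igfbp1 is repressed by insulin. Inhbe and Inhba encode the activin E and activin A subunits of the TGF-beta family, and follistatin (Fst) binds and neutralises activins.

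The values are FPKM, fragments scaled to transcript length and to the mapped total of the library. Totals were 446595 to 502458 FPKM per library, and relative depth, estimated from the intervals of 564 genes, lay between 0.861 and 1.096. The label check showed Cyp2b10 at 1694 ± 82.4 FPKM with TCPOBOP and 4.26 ± 1.18 with corn oil in wild type newborns (SD, n = 3 each), and at 2596 ± 180 and 12.9 ± 4.16 in wild type adults. In hCAR-TG mice Cyp2b10 was at 435 ± 28 with CITCO and 2.81 ± 2.13 with corn oil at day 5, and at 1226 ± 31.0 and 225 ± 16.5 at day 60. Nr1i3, which maps the mouse gene, does not check the human knock-in. Hepatocyte markers summed to between 21960 and 76580 FPKM over all libraries and none was at 0. Replicate 3 of hCAR-TG day 5 corn oil stood apart from its group (SD over genes of its deviation from the group mean 0.257 log2, against 0.0967 to 0.178 in the other libraries), so values of hCAR-TG newborns are also given without it where it changed a call, the direction or the size by much.

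Log2 changes below are differences of log2(FPKM + 1) with their standard error, from limma fitted over all tested genes with Benjamini-Hochberg adjustment, and a gene was called at an adjusted p under 0.05. The added 1 understates the change of genes near or below 1 FPKM. In wild type newborns 8 of the 10 genes were called with TCPOBOP, 2 higher and 6 lower, where 35.9% of all tested genes were called (24.6% higher and 11.3% lower). In wild type adults 8 were called, 4 higher and 4 lower, against 47.2% of all genes (31.4% higher and 15.8% lower). In hCAR-TG newborns CITCO gave 2 calls, 1 in each direction, against 17.1% of all genes (8.27% higher and 8.82% lower), and 3 calls without the library that stood apart. In hCAR-TG adults it gave 4 calls, 2 in each direction, against 8.37% of all genes (4.4% higher and 3.97% lower). The median log2 change over the 10 genes was -0.59, -0.34, 0.01 and -0.15 in these 4 comparisons, beside 0.04, 0.06, 0.01 and 0.00 over all tested genes.

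**Figure D1:**
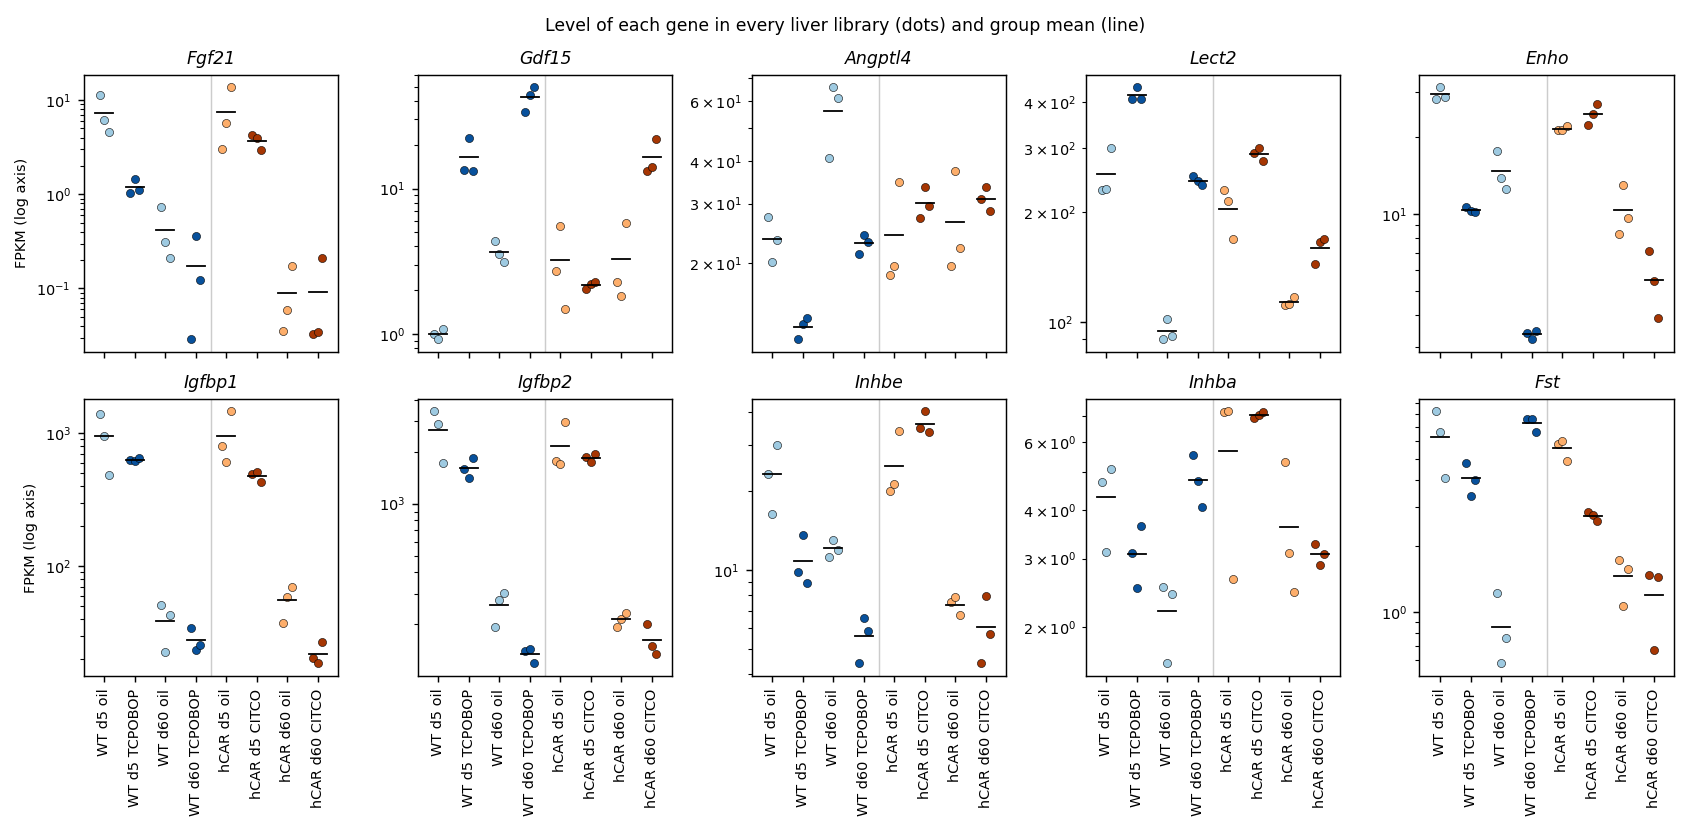
FPKM of the 10 genes (vertical log axes) in each of the 24 liver libraries (dots), by group, with the group mean as a line; d5 and d60 are the ages, light colours corn oil and dark colours the ligand. Gdf15 lies above corn oil in both TCPOBOP groups and in adult CITCO libraries, and Fgf21, Igfbp1 and Igfbp2 lie far lower at day 60 than at day 5 in every group.

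Gdf15, the stress hormone, had the largest log2 change of the 10 genes in each comparison with TCPOBOP. At day 5 the wild type corn oil libraries were at 0.997, 0.922 and 1.09 FPKM and the TCPOBOP libraries at 13.5, 22.4 and 13.3. At day 60 they were at 4.33, 3.52 and 3.10 with corn oil and 33.7, 43.9 and 49.8 with TCPOBOP. The groups did not overlap at either age, and Gdf15 rose by 3.08 ± 0.32 at day 5 (adjusted p = 4.24e-07) and by 3.21 ± 0.32 at day 60 (adjusted p = 1.13e-07), 16.4-fold and 11.6-fold by mean FPKM.

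CITCO gave another pattern for Gdf15. In hCAR-TG newborns the corn oil libraries were at 2.70, 5.55 and 1.49 FPKM and the CITCO libraries at 2.05, 2.20 and 2.27, so the CITCO values lay inside the corn oil range (log2 difference -0.31 ± 0.32, adjusted p = 0.532, and -0.64 without the library that stood apart). In hCAR-TG adults they were at 2.29, 1.83 and 5.78 with corn oil and 13.1, 14.1 and 22.0 with CITCO. Every adult CITCO library was above every corn oil library, a rise of 2.09 ± 0.32 (adjusted p = 0.000362), 4.96-fold by mean FPKM. The change with CITCO was larger at day 60 than at day 5 by 2.40 ± 0.45 (adjusted p = 0.00283), and at day 5 it was lower than that with TCPOBOP in wild type by 3.39 on the log2 scale (difference -3.39 ± 0.45, adjusted p = 2.34e-05). Without the library that stood apart these differences were 2.73 (adjusted p = 0.00102) and -3.71 (adjusted p = 1.28e-05). At day 60 the difference between the pairs was -1.12 ± 0.45 (adjusted p = 0.065), and it was called without the second hCAR-TG corn oil library (-1.37, adjusted p = 0.0299) or without the third CITCO library (-1.34, adjusted p = 0.036).

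**Figure D2:**
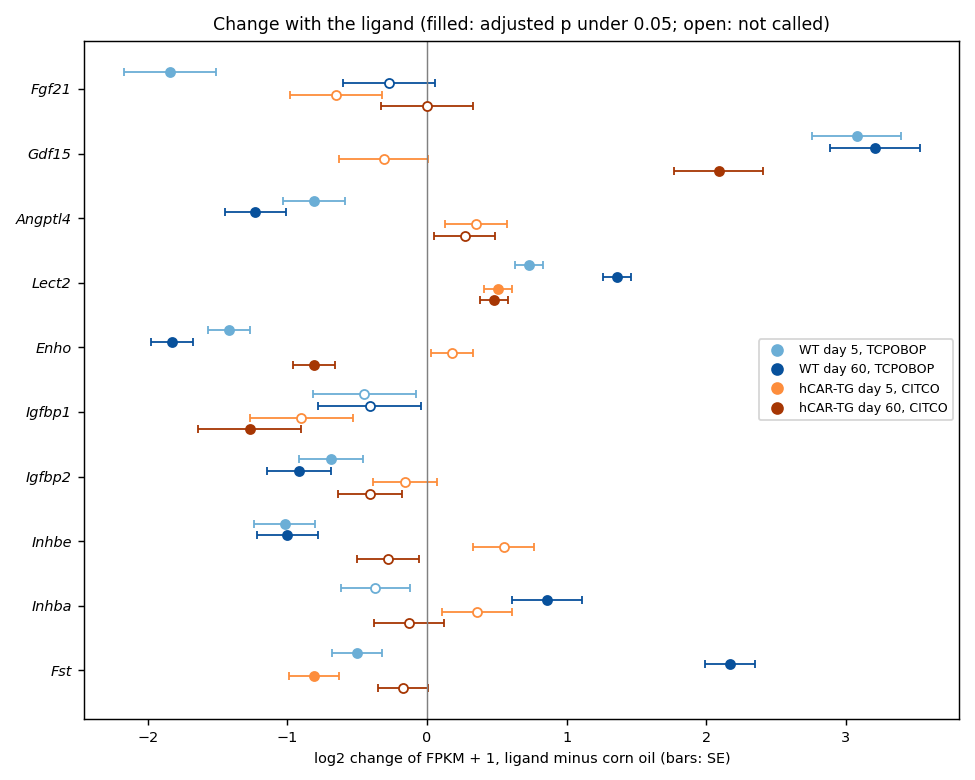
Log2 change of FPKM + 1, ligand minus corn oil (horizontal axis, bars are the SE), of the 10 genes in the 4 ligand comparisons; filled dots were called and open dots were not. Lect2 is higher in all 4, Gdf15 is higher in 3, and Fst is at 2.17 in wild type adults beside values below 0 in the other comparisons.

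Fgf21, the fasting hormone, fell with TCPOBOP in newborn wild type liver. The corn oil libraries were at 11.3, 6.08 and 4.60 FPKM and the TCPOBOP libraries at 1.04, 1.44 and 1.12, with no overlap, a fall of 6.11-fold by mean FPKM (log2 change -1.84 ± 0.33, adjusted p = 0.000218). In hCAR-TG newborns the values were 3.0, 5.66 and 13.7 with corn oil and 4.23, 3.92 and 2.92 with CITCO. Those groups overlapped and the difference was not called (-0.65 ± 0.33, adjusted p = 0.175). It was -0.15 without the library at 13.7, and it was called without the first corn oil library (-1.09, adjusted p = 0.0162). The difference from the change with TCPOBOP was 1.19 ± 0.47 (adjusted p = 0.0564). It was called without the library at 13.7 (1.69, adjusted p = 0.00161) or without the third wild type corn oil library (1.44, adjusted p = 0.0272).

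Adult liver had little Fgf21 RNA in any group. The wild type corn oil libraries were at 0.741, 0.314 and 0.212 FPKM and the TCPOBOP libraries at 0.0289, 0.363 and 0.122. In hCAR-TG adults corn oil gave 0.0353, 0.0591 and 0.172 and CITCO 0.0326, 0.0342 and 0.210. If the half-width of the deposited interval is 2 SD of a count of fragments, these adult values rest on 1 to 22 fragments per library. For that reason no fold is given for the ligands at day 60. The log2 difference was -0.27 ± 0.33 with TCPOBOP (adjusted p = 0.543) and 0.00 ± 0.33 with CITCO, and neither was called. A fall from such low levels may go unseen at this depth.

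The stress and fasting genes that share known regulators with these hormones were given by lists. Of 17 tested genes of the integrated stress response, the pathway in which ATF4 is made when protein synthesis is curbed, 4 rose and 0 fell with TCPOBOP at day 5, and 8 rose and 1 fell at day 60. The day 5 share is near the 24.6% of all tested genes called higher, and the counts of every list below are to be read against the shares of all genes given above. Trib3, a pseudokinase induced by ATF4 and CHOP, rose by 2.89 ± 0.27 at day 5 from 1.74 ± 0.522 to 19.2 ± 2.22 FPKM (adjusted p = 8.02e-08). Vldlr, a lipoprotein receptor, rose by 1.18 at day 5 and by 1.78 at day 60, and Atf3, a stress transcription factor, rose by 1.56 at day 60. With CITCO 0 rose and 6 fell at day 5, among them Phgdh (-0.70) and Aldh18a1 (-0.51), enzymes of serine and proline synthesis. At day 60 CITCO gave 1 rise, Chac1 (0.77), a glutathione-degrading enzyme, and 2 falls, Ddit4 (-0.82) and Atf5 (-0.58). The list's median log2 change was 0.11, 0.27, -0.06 and -0.10 in the order used above.

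Inhbe, the activin E gene and known as an ATF4 target in liver cells, fell with TCPOBOP in the comparisons in which Gdf15 rose. Its wild type newborn values were 23.2, 16.3 and 29.95 FPKM with corn oil and 9.79, 13.6 and 8.95 with TCPOBOP. Its wild type adult values were 11.2, 13.1 and 12 with corn oil and 4.40, 6.57 and 5.85 with TCPOBOP. The groups did not overlap at either age, and Inhbe fell by 1.02 ± 0.22 on the log2 scale at day 5 (adjusted p = 0.00103) and by 1.0 ± 0.22 at day 60 (adjusted p = 0.000751).

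In hCAR-TG newborns Inhbe was at 20.01, 21.2 and 33.9 FPKM with corn oil and 34.7, 40.3 and 33.6 with CITCO. The highest corn oil value is that of the library that stood apart, and among the alternatives run Inhbe was called only without it (0.78, adjusted p = 0.0257, against 0.55 and 0.0847 with it). The difference between the 2 ligand and receptor pairs at day 5 was 1.56 ± 0.31 (adjusted p = 0.000769), and 1.79 without that library. In hCAR-TG adults the values were 7.55, 7.87 and 6.72 with corn oil and 4.43, 7.98 and 5.70 with CITCO, which overlapped (-0.28 ± 0.22, adjusted p = 0.534). The difference between the pairs at day 60 was 0.72 ± 0.31 (adjusted p = 0.0802), and it stayed uncalled in 16 of 19 alternatives. It was called after rescaling by the median of ratios (adjusted p = 0.0379), with only the groups compared (adjusted p = 0.0348) and without the first CITCO library (adjusted p = 0.0374).

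To show these genes' start regions, promoter letters were taken from RefSeq (GRCm38.p6), which had windows for 7 of the 10 genes. The windows of 250 bases before the start were searched on both strands for TGATGNAA, the composite element bound by ATF4 with C/EBP factors, which 3.45% of 32851 windows hold. It was found in Fgf21 (its first letter 139 bases before the start) and Inhbe (181 bases before), and not in the Gdf15 windows. Both Gdf15 windows, chr8:70632457-70632706 and chr8:70632096-70632345, lie upstream of the Gdf15 entry given below. The bases directly before that entry were not searched, so the result does not cover them. In 1 of the Gdf15 windows AGGTCA, the nuclear receptor hexamer, was found 55 bases before the start, as in 14.02% of windows. A second form that was searched, AGTTCA, which 11.84% of windows hold, was found in none of the windows of these genes. All 250 bases of the Inhbe window lie in a UTR of the GENCODE annotation, so they are transcribed bases there and not only promoter. The motifs were chosen after the values were seen, and a match is a description only. The stretches below are printed on the gene's strand with the match in capitals. They are Fgf21 at chr7:45615491-45615740 (minus strand), Inhbe at chr10:127352012-127352039 (minus strand, only the bases around the match, before a start upstream of the files' entry) and Gdf15 at chr8:70632457-70632706 (minus strand, before a start upstream of the files' entry).

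Fgf21: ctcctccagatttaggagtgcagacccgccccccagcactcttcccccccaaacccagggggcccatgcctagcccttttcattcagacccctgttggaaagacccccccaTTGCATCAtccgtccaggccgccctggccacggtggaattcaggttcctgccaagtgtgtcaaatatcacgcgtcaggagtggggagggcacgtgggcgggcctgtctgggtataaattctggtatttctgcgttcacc

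Inhbe: atcctctttcTTGCATCAtgcatgtcca

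Gdf15: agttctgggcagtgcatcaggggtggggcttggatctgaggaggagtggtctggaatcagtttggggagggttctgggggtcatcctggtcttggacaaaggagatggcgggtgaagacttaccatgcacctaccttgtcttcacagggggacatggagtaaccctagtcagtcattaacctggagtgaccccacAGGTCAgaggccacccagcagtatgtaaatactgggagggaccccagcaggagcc

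The entries of these genes in the files lie at chr7:45613889-45615490 for Fgf21, chr10:127349401-127351772 for Inhbe and chr8:70629393-70631635 for Gdf15 (mm10).

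Angptl4, the lipoprotein lipase inhibitor, fell with TCPOBOP at both ages. At day 5 wild type libraries were at 27.4, 20.2 and 23.4 FPKM with corn oil and 12, 13.3 and 13.8 with TCPOBOP. At day 60 they were at 40.8, 66.0 and 61.3 with corn oil and 21.4, 24.2 and 23.2 with TCPOBOP. No TCPOBOP library reached its corn oil range, and the log2 change was -0.81 ± 0.22 at day 5 (adjusted p = 0.00765) and -1.23 ± 0.22 at day 60 (adjusted p = 0.000125).

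With CITCO Angptl4 was at 27.2, 33.6 and 29.6 FPKM in newborns, against 18.5, 19.6 and 34.6 with corn oil. In adults it was at 30.9, 33.5 and 28.5 with CITCO and 19.7, 37.4 and 22.2 with corn oil. In both cases 1 corn oil library lay above all CITCO libraries, and neither difference was called (0.35, adjusted p = 0.277, and 0.27, adjusted p = 0.563). The newborn value at 34.6 is that of the library that stood apart, and without it the difference was 0.63 (adjusted p = 0.0578). The changes with the 2 pairs differed by 1.16 ± 0.31 at day 5 (adjusted p = 0.00873, and 1.44 without that library) and by 1.5 ± 0.31 at day 60 (adjusted p = 0.000965).

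Angptl4 and Fgf21 are known targets of PPARa, the fatty acid receptor that runs the fasting programme. Of 16 other PPARa targets tested, 9 fell and 2 rose with TCPOBOP at day 5, and 10 fell and 2 rose at day 60. Ppara itself fell by 1.0 ± 0.13 at day 5 (adjusted p = 3.05e-06) and by 1.67 ± 0.13 at day 60 (adjusted p = 7.72e-10). Cyp4a10, a fatty acid hydroxylase, fell by 2.87 at day 60. With CITCO 3 fell and 1 rose at day 5, and 4 fell and 1 rose at day 60, among them Cyp4a10 (-1.85) and Plin2 (-0.62), a lipid droplet protein. The list's median log2 change was -0.40, -0.46, 0.04 and -0.15 in the order used above.

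The partners of ANGPTL4 in lipoprotein metabolism were given by a list of 9 tested genes. With TCPOBOP 6 fell and 0 rose at day 5, and 3 fell and 2 rose at day 60. Gm6484, an older symbol of Angptl8, fell by 0.99 at day 5, and Lipc, hepatic lipase, fell by 0.67 at day 60. CITCO gave 1 call in newborns, a rise of 0.91 for Lpl, lipoprotein lipase, and limma made 0 calls of 9 in adults (1 at an unadjusted p under 0.05).

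**Figure D3:**
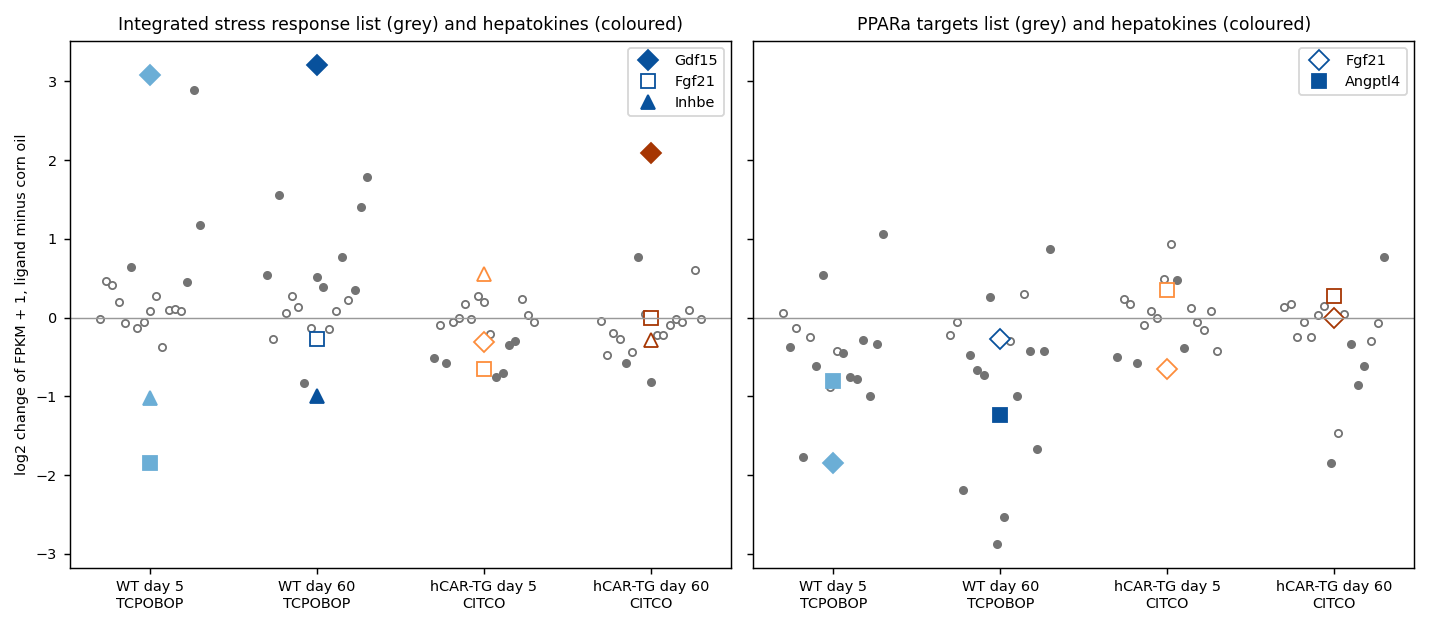
Log2 change of FPKM + 1, ligand minus corn oil (vertical axis), of the tested genes of the integrated stress response list (left) and the PPARa target list (right), grey, with hepatokines in colour; filled symbols were called. Gdf15 is at 3.08 and 3.21 with TCPOBOP while Inhbe is at -1.02 and -1.0, and Angptl4 lies below 0 with TCPOBOP only.

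Lect2 was the member called higher in all 4 ligand comparisons. In wild type newborns it was at 230, 232 and 299 FPKM with corn oil and 407, 440 and 408 with TCPOBOP. In wild type adults it was at 89.8, 102 and 91.5 with corn oil and 251, 243 and 238 with TCPOBOP. Without overlap at either age, Lect2 rose by 0.73 ± 0.10 (adjusted p = 9.44e-06) and by 1.36 ± 0.10 (adjusted p = 5.72e-10). The change was larger in adults by 0.63 ± 0.14 (adjusted p = 0.00284).

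With CITCO Lect2 was at 290, 299 and 277 FPKM in newborns, against 231, 214 and 169 with corn oil. In adults it was at 144, 166 and 169, against 112, 112 and 117. Again no library of one group entered the range of the other, and Lect2 rose by 0.51 ± 0.10 at day 5 (adjusted p = 0.00205, and 0.37 with adjusted p = 0.0093 without the library that stood apart) and by 0.48 ± 0.10 at day 60 (adjusted p = 0.00438). In adults the change with CITCO was smaller than that with TCPOBOP (difference -0.88 ± 0.14, adjusted p = 7.58e-05). In newborns the difference between the pairs was -0.22 ± 0.14 (adjusted p = 0.242), and it was called without the third wild type corn oil library (-0.35, adjusted p = 0.0493) or without the hCAR-TG library that stood apart (-0.35, adjusted p = 0.0342). In a fit of the 2 groups alone the day 5 call with CITCO was lost (adjusted p = 0.0751).

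Enho, the adropin gene, fell with TCPOBOP at both ages. Wild type newborn libraries were at 28.1, 31.3 and 28.6 FPKM with corn oil and 10.6, 10.3 and 10.1 with TCPOBOP. Wild type adult libraries were at 17.7, 13.8 and 12.5 with corn oil and 3.41, 3.23 and 3.47 with TCPOBOP. The groups were far apart for their narrow spread, with log2 changes of -1.42 ± 0.15 (adjusted p = 2.25e-07) and -1.83 ± 0.15 (adjusted p = 2.37e-09), 2.84-fold and 4.35-fold lower by mean FPKM.

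In hCAR-TG newborns Enho was at 21.3, 21.3 and 22.1 FPKM with corn oil and 22.3, 24.7 and 26.9 with CITCO, a difference that was not called (0.18 ± 0.15, adjusted p = 0.416) although the groups did not overlap. In hCAR-TG adults it was at 8.32, 13 and 9.65 with corn oil and 7.15, 5.44 and 3.89 with CITCO. There it fell by 0.81 ± 0.15 (adjusted p = 0.00142), a call lost in a fit of the 2 groups alone (adjusted p = 0.0917). The CITCO change differed between ages by -0.99 ± 0.21 (adjusted p = 0.00529), and it differed from that with TCPOBOP by 1.60 ± 0.21 at day 5 (adjusted p = 1.18e-05) and 1.02 ± 0.21 at day 60 (adjusted p = 0.000793).

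The entry of Enho (chr4:41638143-41640302) overlaps the end of Dnaic1, a cilium gene on the other strand, and the counting is not stated to use strand, so reads of the overlap cannot be told apart. Dnaic1 fell with TCPOBOP at day 5 by 2.69 ± 0.10 (adjusted p = 2.09e-14), from between 7.67 and 9.11 FPKM to between 0.433 and 0.551. In adult wild type liver Dnaic1 was at most 0.171 FPKM with corn oil, where Enho was at 12.5 to 17.7 and fell with TCPOBOP. Dnaic1 also fell with CITCO in newborns (-0.89 ± 0.10, adjusted p = 4.56e-06), where Enho was not called. Annotated antisense RNAs that overlap Inhbe, Inhba, Fst and Enho had no entries of their own, and their part in these values was not tested.

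Of 18 other hepatokine genes tested, 6 rose and 7 fell with TCPOBOP at day 5 and 1 rose and 8 fell at day 60. Tsku, tsukushi, a secreted protein of liver linked to thermogenesis and cholesterol, rose in all 4 ligand comparisons, by 2.95 ± 0.33, 2.30 ± 0.33, 1.25 ± 0.33 and 1.27 ± 0.33 (largest adjusted p = 0.0217). Ahsg, fetuin-A, fell by 0.68 and 0.82 with TCPOBOP, and Rbp4, the retinol carrier, fell by 0.70 in adults. With CITCO 1 rose and 4 fell in newborns, and 2 rose and 3 fell in adults, where Manf, a secreted factor of the stressed endoplasmic reticulum, fell by 1.20 ± 0.17 (adjusted p = 8.36e-05). Beside these changes, the summed hepatocyte markers were at 38950 to 47720 FPKM with corn oil and 21960 to 24240 with TCPOBOP in wild type adults, and at 75430 to 76580 and 56010 to 59920 in newborns. Of 6 tested hepatocyte markers, 4 were called lower and 0 higher with TCPOBOP in adults, and 2 lower and 1 higher in newborns. Their median log2 change was -0.57 in adults and -0.16 in newborns, so the sums do not stand for every marker. In these bulk samples fewer cells of a type and less RNA per cell cannot be told apart.

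Igfbp1, the insulin-repressed IGF carrier, was called lower with a ligand in 1 of 4 comparisons. In hCAR-TG adults it was at 37.1, 58.4 and 69.9 FPKM with corn oil and 20.3, 18.5 and 26.6 with CITCO, without overlap, and fell by 1.27 ± 0.37 (adjusted p = 0.0389). That call was lost when any library but the first corn oil library was left out (5 of 6, adjusted p = 0.0537 to 0.142). In hCAR-TG newborns it was at 799, 610 and 1460 with corn oil and 494, 511 and 429 with CITCO, also without overlap, and was not called (-0.90 ± 0.37, adjusted p = 0.0946). It was at -0.55 without the library at 1460, and it was called without the second corn oil library (-1.18, adjusted p = 0.0466).

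With TCPOBOP Igfbp1 was not called at either age. Newborn wild type libraries were at 1390, 958 and 486 FPKM with corn oil and 628, 621 and 649 with TCPOBOP, and adult ones at 51.1, 22.5 and 42.7 and at 34.1, 23.5 and 25.6. The corn oil range covered the TCPOBOP libraries at both ages (-0.45, adjusted p = 0.367, and -0.41, adjusted p = 0.397).

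Since Igfbp1 is a textbook insulin target, its start region is shown with the core of the insulin response element bound by FOXO1. The letters searched were TGTTTTG on both strands, which 5.56% of windows hold. The match, read on the gene's strand as CAAAACA, has its first letter 108 bases before the start. The stretch is RefSeq GRCm38.p6 chr11:7197537-7197781, plus strand, and the files' entry is at chr11:7197786-7202546.

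Igfbp1: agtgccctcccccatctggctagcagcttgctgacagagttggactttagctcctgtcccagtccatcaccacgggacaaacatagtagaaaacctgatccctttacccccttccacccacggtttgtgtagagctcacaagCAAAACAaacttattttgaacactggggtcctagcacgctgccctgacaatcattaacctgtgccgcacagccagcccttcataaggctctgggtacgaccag

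Of 10 other insulin or glucocorticoid responsive genes, 0 rose in any of the 4 ligand comparisons. With TCPOBOP 2 fell at day 5 and 7 at day 60, and with CITCO 3 fell at day 5 and 3 at day 60. Pck1, the gluconeogenic enzyme that insulin represses, fell by 1.47 ± 0.18 with TCPOBOP in adults and by 0.77 ± 0.18 with CITCO in newborns. Tat, tyrosine aminotransferase, fell by 1.16 with TCPOBOP and by 0.80 with CITCO in adults, and G6pc, glucose-6-phosphatase, fell by 0.92 with CITCO in adults. Irs2, an insulin receptor substrate, fell by 1.15 with CITCO in newborns.

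Igfbp2, a second IGF carrier and the most abundant of the 10 genes by FPKM in newborns, fell with TCPOBOP in adults. Its adult values were 193, 277 and 305 FPKM with corn oil and 141, 143 and 118 with TCPOBOP, without overlap (-0.92 ± 0.23, adjusted p = 0.00296). In newborns it was at 3420, 2890 and 1730 with corn oil and 1580, 1410 and 1850 with TCPOBOP, which overlapped (-0.69 ± 0.23, adjusted p = 0.0283). The newborn call was lost without the first or second library of either group (adjusted p = 0.0653 to 0.161) and in a fit of the 2 groups alone (adjusted p = 0.0968). With CITCO it was at 1860, 1740 and 1940 in newborns (corn oil 1760, 1690 and 2980) and at 201, 149 and 135 in adults (corn oil 192, 214 and 233), with log2 differences of -0.16 (adjusted p = 0.659, and 0.10 without the library that stood apart) and -0.41 (adjusted p = 0.344).

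The other genes of the IGF axis were given by a list of 12 tested genes. With TCPOBOP 7 fell and 2 rose at day 5, and 5 fell and 1 rose at day 60. Igfals, which holds IGFs in a stable blood complex, fell by 1.12 ± 0.16 at day 5 and by 1.61 ± 0.16 at day 60, and by 0.90 ± 0.16 with CITCO in newborns. Ghr, the growth hormone receptor, fell by 1.32 ± 0.16 in wild type adults, from 210 ± 26.2 to 82.8 ± 4.65 FPKM. Igf2, the fetal growth factor, fell by 1.03 ± 0.09 with TCPOBOP in newborns and by 0.34 ± 0.09 with CITCO. CITCO gave 2 falls and 0 rises at day 5, and 0 falls and 1 rise, Igf2r (0.22), at day 60.

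Fst, the activin antagonist, rose with TCPOBOP in adult wild type liver. In wild type adults it was at 1.23, 0.581 and 0.761 FPKM with corn oil and 7.56, 7.57 and 6.65 with TCPOBOP. Every TCPOBOP library was far above corn oil, a rise of 2.17 ± 0.18 (adjusted p = 5.42e-09), 8.48-fold by mean FPKM. In wild type newborns it was at 8.23, 6.63 and 4.09 with corn oil and 4.8, 3.38 and 4.02 with TCPOBOP, which overlapped, and it fell by 0.50 ± 0.18 (adjusted p = 0.0413). The newborn call was lost without the first or second corn oil library or without TCPOBOP replicate 2 or 3 (adjusted p = 0.0843 to 0.24), with a pseudocount of 0.1 (adjusted p = 0.114), with no filter (adjusted p = 0.0616) and in a fit of the 2 groups alone (adjusted p = 0.133), and the value was -0.31 without the first corn oil library. The changes at the 2 ages differed by 2.66 ± 0.26 (adjusted p = 2.17e-07).

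In hCAR-TG newborns Fst was at 5.83, 6.01 and 4.88 FPKM with corn oil and 2.85, 2.78 and 2.60 with CITCO. The groups did not overlap, and Fst fell by 0.81 ± 0.18 (adjusted p = 0.00528, and by 0.89 without the library that stood apart). In hCAR-TG adults it was at 1.72, 1.07 and 1.57 with corn oil and 1.47, 0.670 and 1.44 with CITCO, which overlapped (-0.17 ± 0.18, adjusted p = 0.68). In adults the change with CITCO was lower than that with TCPOBOP (difference -2.34 ± 0.26, adjusted p = 7.5e-07).

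Inhba, the activin A gene, rose beside Fst in wild type adults given TCPOBOP. It was at 2.54, 1.61 and 2.43 FPKM with corn oil and 5.53, 4.75 and 4.08 with TCPOBOP, without overlap (0.86 ± 0.25, adjusted p = 0.00799). In wild type newborns it was at 4.73, 3.12 and 5.10 with corn oil and 3.10, 2.52 and 3.65 with TCPOBOP, and was not called (-0.37 ± 0.25, adjusted p = 0.277). The changes at the 2 ages differed by 1.23 ± 0.36 (adjusted p = 0.016).

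In hCAR-TG newborns Inhba was at 7.15, 7.18 and 2.66 FPKM with corn oil and 6.91, 7.02 and 7.17 with CITCO. The low value is that of the library that stood apart, and the difference was 0.36 ± 0.25 with it (adjusted p = 0.329) and -0.02 without it. In adults it was at 5.33, 3.09 and 2.46 with corn oil and 3.28, 2.88 and 3.08 with CITCO (-0.13 ± 0.25, adjusted p = 0.844). The difference between the pairs in adults was -1.0 ± 0.36 (adjusted p = 0.0366), a call lost when any of 7 of the 12 libraries was left out: the second wild type corn oil library, the first or second TCPOBOP library, the first hCAR-TG corn oil library or any CITCO library (adjusted p = 0.0534 to 0.114). The call was also lost with no filter (adjusted p = 0.0562).

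Other genes of the activin and follistatin axis were given by a list of 13 tested genes. With TCPOBOP 6 fell and 0 rose at day 5, and 4 fell and 2 rose at day 60. Inhbc, the activin C gene of hepatocytes, fell by 0.80 ± 0.12 at day 5 and by 0.95 ± 0.12 at day 60, as Inhbe did, and Inhbb, the activin B gene, fell by 0.86 ± 0.11 at day 5. Acvr1, a type I receptor of activin and BMP ligands, rose by 0.67 ± 0.10 in wild type adults. CITCO gave 2 falls and 0 rises at day 5, and 0 falls and 1 rise at day 60.

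Fst and Inhba are also made by cells other than hepatocytes. Over the 8 stellate cell markers the summed level was 95.6 to 109 FPKM with corn oil and 77.3 to 84.4 with TCPOBOP in wild type adults, where Fst and Inhba were higher. Over the 7 endothelial markers it was 94.9 to 109 and 87.5 to 92.1, over the 7 Kupffer cell markers 189 to 217 and 176 to 198, and over the 6 cholangiocyte markers 18.5 to 23.7 and 36.2 to 56.8, none of these at 0. By calls, 1 of 8 stellate markers was higher and 3 were lower, and 1 of 7 endothelial markers was higher and 2 were lower. Of 7 Kupffer cell markers 0 were called higher and 2 lower. The median log2 changes of these lists were -0.20, 0.07 and -0.14. Only the cholangiocyte sum was higher with TCPOBOP among the 4 lists. Of its 5 tested markers 2 were called higher, Spp1 (1.07, from 18.8 to 41.2 FPKM) and Sox9 (0.49), and the list's median log2 change was 0.01.

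In newborns, where Fst was called lower with each ligand, the markers of the same cell types were read beside it. With TCPOBOP 5 of 8 stellate cell markers fell and 0 rose, and their sum was 258 to 275 FPKM with corn oil and 170 to 222 with TCPOBOP. With CITCO 6 of 7 endothelial markers fell and 0 rose, and their sum was 160 to 179 and 122 to 132, with no marker of either list at 0. With the other ligand the counts were 1 endothelial marker higher and 1 lower with TCPOBOP, and 2 stellate markers lower and 0 higher with CITCO. Of 7 Kupffer cell markers 4 rose and 0 fell with TCPOBOP, and 0 rose and 1 fell with CITCO. Of 5 tested cholangiocyte markers 1 rose and 0 fell with TCPOBOP, and 1 rose and 1 fell with CITCO. The part of these cell type markers in the values of Fst and Inhba was not tested.

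On the receptor side of FGF21, 4 of 7 tested genes fell with TCPOBOP at day 5 and 2 at day 60, and 0 rose. Klb, the co-receptor that makes a tissue respond to FGF21, fell by 0.59 ± 0.12 at day 5 and by 0.86 ± 0.12 at day 60, from 7.91 ± 2.10 to 3.83 ± 0.426 FPKM in adults. Fgf1, a related growth factor, fell by 0.52, 0.63, 0.27 and 0.57 in the 4 ligand comparisons. With CITCO 2 of 7 fell in newborns, Fgfr2 (-0.49) and Fgf1, and 1 of 7, Fgf1, in adults.

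The closing number in the read file name, whose meaning is not stated, differed between libraries. In wild type newborns it was the same within each group and differed between corn oil and TCPOBOP, so it cannot be told apart from the ligand there. The number could also not be fitted for corn oil day 5 between genotypes or the age change in hCAR-TG mice. The same holds for the TCPOBOP response between ages and the day 5 difference between pairs. In these comparisons the closing number cannot be told apart from what is compared. With it as a factor, all 8 calls of wild type adults were kept. In hCAR-TG adults the first CITCO library shares its number with the 3 corn oil libraries. Within that number Gdf15 was at 13.1 FPKM against 1.83 to 5.78, Lect2 at 144 against 112 to 117, Enho at 7.15 against 8.32 to 13, and Igfbp1 at 20.3 against 37.1 to 69.9. With the number as a factor Gdf15 stayed called (1.83, adjusted p = 0.0298), and Lect2 (0.34, adjusted p = 0.111), Enho (-0.45, adjusted p = 0.221) and Igfbp1 (-1.35, adjusted p = 0.187) were not.

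In hCAR-TG newborns the corn oil library that stood apart shares its number with the 3 CITCO libraries. Within that number Fst was at 4.88 FPKM against 2.60 to 2.85 with CITCO, and Lect2 at 169 against 277 to 299. With the number as a factor Lect2 stayed called (0.77) and Fst was not (-0.65, adjusted p = 0.0691). Fgf21 (-1.66, adjusted p = 0.00196), Igfbp1 (-1.61, adjusted p = 0.0242) and Inhba (1.13, adjusted p = 0.0035) were then called, values that rest on that 1 corn oil library.

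The same corn oil libraries served the response differences and the ligand comparisons, so they share samples. Between ages, 4 of the 10 genes differed in the response to TCPOBOP (23.4% of all tested genes) and 2 in that to CITCO (9.99%). The 4 include Fgf21, which was at most 0.741 FPKM in wild type adults, where the added 1 bounds any fall. Its difference was not called with a pseudocount of 0.1 (1.41, adjusted p = 0.199). Between the pairs 4 differed at day 5 (33.7%) and 5 at day 60 (33.8%). Without the library that stood apart, 6 differed between the pairs at day 5, with Fgf21 and Lect2 added, and 3 between ages with CITCO, with Inhbe added (-1.06, adjusted p = 0.0304). The CITCO age differences of Gdf15 and Enho were not called with the closing number as a factor (1.48, adjusted p = 0.0847, and -0.60, adjusted p = 0.109).

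From day 5 to day 60 under corn oil, most of these genes fell. In wild type mice all 10 were called, 2 higher and 8 lower, against 70.2% of all tested genes (25.2% higher and 44.9% lower). In hCAR-TG mice 7 fell and 0 rose, against 71.6% (24.3% higher and 47.3% lower), and 8 fell without the library that stood apart. The median log2 change over the 10 genes was -1.19 and -1.22, beside -0.14 and -0.17 over all tested genes. Rescaling by the median of ratios moved the median of all genes to 0.01 and 0.02.

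**Figure D4:**
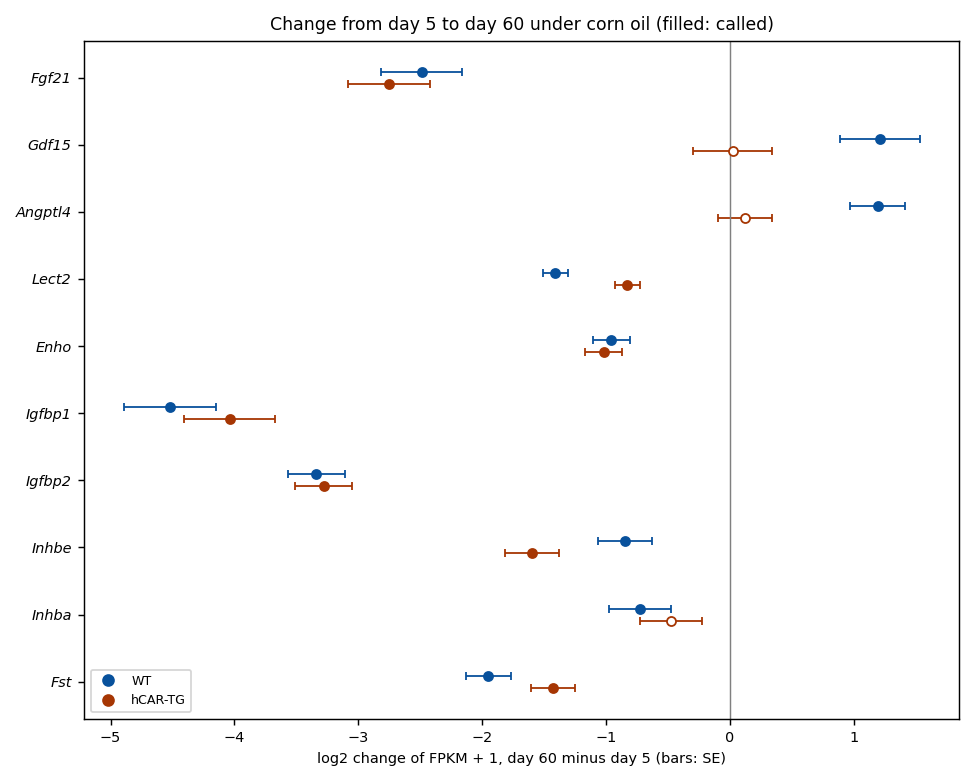
Log2 change of FPKM + 1 from day 5 to day 60 under corn oil (horizontal axis, bars are the SE) of the 10 genes in wild type and hCAR-TG liver; filled dots were called. On this scale Igfbp1 and Igfbp2 have the largest falls in both genotypes, and Gdf15, Angptl4 and Inhba are called in wild type liver and not in hCAR-TG liver.

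The IGF carriers fell far with age. Igfbp1 was 24.4-fold lower in adult than in newborn wild type liver by mean FPKM (-4.52 ± 0.37, adjusted p = 3.33e-09) and 17.3-fold lower in hCAR-TG liver (-4.04 ± 0.37, adjusted p = 1.39e-08). Igfbp2 was 10.4-fold and 10.1-fold lower (-3.34 ± 0.23 and -3.28 ± 0.23). Fgf21 changed by -2.49 ± 0.33 and -2.75 ± 0.33 on the log2(FPKM + 1) scale, and with 0.1 added in place of 1 by -3.86 and -5.12, so its rank among these falls depends on the scale. Fst fell 7.38-fold in wild type liver and 3.84-fold in hCAR-TG liver (-1.95 ± 0.18 and -1.43 ± 0.18).

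Lect2, Enho and Inhbe also fell in both genotypes. Lect2 fell by 1.41 ± 0.10 and 0.83 ± 0.10, Enho by 0.96 ± 0.15 and 1.02 ± 0.15, and Inhbe by 0.85 ± 0.22 and 1.60 ± 0.22 in wild type and hCAR-TG liver. Inhba fell by 0.73 ± 0.25 in wild type liver (adjusted p = 0.0149), a call lost without the third day 5 library (adjusted p = 0.0615) or the second day 60 library (adjusted p = 0.0711). In hCAR-TG liver Inhba was at -0.48 ± 0.25 (adjusted p = 0.0936), and it was called without the library that stood apart (-0.87, adjusted p = 0.000951) or without the first day 60 library (-0.73, adjusted p = 0.016). With the closing number as a factor, the wild type calls of Inhbe (-0.23, adjusted p = 0.706) and Inhba (-1.10, adjusted p = 0.0509) were lost.

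Gdf15 and Angptl4 rose with age in wild type liver, by 1.21 ± 0.32 (adjusted p = 0.00255) and 1.19 ± 0.22 (adjusted p = 8.56e-05). In hCAR-TG liver they were at 0.02 ± 0.32 (adjusted p = 0.956) and 0.12 ± 0.22 (adjusted p = 0.635), and at -0.31 and 0.40 without the library that stood apart. The difference of the age changes between genotypes was not tested.

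Between genotypes under corn oil few of the 10 genes differed. At day 5 limma called 0 of 10 (3 at an unadjusted p under 0.05), against 10.6% of all tested genes. Gdf15 had the largest difference (0.97 ± 0.32, adjusted p = 0.0609), with all 3 hCAR-TG libraries above all 3 wild type libraries. Without the library that stood apart, 2 were called, Gdf15 (1.30, adjusted p = 0.0158) and Inhba (0.64, adjusted p = 0.0444). Lect2 was at -0.31 (adjusted p = 0.0566) and was called without the first hCAR-TG library (-0.40, adjusted p = 0.0198).

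At day 60 1 of 10 was called, against 4.9% of all tested genes. Angptl4 was at 19.7, 37.4 and 22.2 FPKM in hCAR-TG liver and 40.8, 66.0 and 61.3 in wild type liver (-1.08 ± 0.22, adjusted p = 0.00548), with no overlap. It was not called in a fit of the 2 groups alone (adjusted p = 0.142) or with the closing number as a factor (-1.11, adjusted p = 0.212). Of the 16 other PPARa targets, 4 were also lower in hCAR-TG adults and 0 higher, with a list median of -0.44. Enho was at -0.48 (adjusted p = 0.0727) and was called without the second hCAR-TG library (-0.64, adjusted p = 0.0164). Inhbe was at -0.64 ± 0.22 without overlap and was not called (adjusted p = 0.102), but it was called in a fit of the 2 groups alone (adjusted p = 0.0146).

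The genes whose levels were most like those of each member were named by Pearson r of log2(FPKM + 1) over the 12 libraries of an age. The TCPOBOP libraries stand apart from the others in many genes, so these values describe likeness between libraries of 4 groups and carry no p. Among adults Lect2 was most like Pdzk1 (r = 0.995) and Gstm2 (0.994), Gdf15 most like Aox1 (0.976), Fst most like Fbxw8 (0.989), and Enho most like Tacc1 (0.972) and Apob (0.969). Angptl4 was most like Phf11c (0.949), Bbox1 (0.946) and Cpt1a (0.938), the carnitine palmitoyltransferase of fatty acid oxidation, and Igfbp1 most like Pxdc1 (0.893) and Irs2 (0.88). Among newborns Angptl4 was most like Slc25a42 (0.955), Ehhadh (0.949) and Acadm (0.948), Gdf15 most like Tgm2 (0.986), and Fst most like Bmp2 (0.969) and Glul (0.911).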

How the data were processed

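Liver RNA was sequenced in 24 libraries, with RNA Bee extraction and the TruSeq Stranded mRNA kit per the labels' protocols. The authors deposited 1 table per library of FPKM per gene with the bounds of an interval, per the file headers, on mm10 per the submitters' processing notes. The aligner, the quantification tool, the annotation and whether counting used strand are not given in the sources used here.

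Entries of a symbol were summed (281 symbols at several loci), and 5 genes with a failed estimate were left out, leaving 24339. The 12282 genes that reached 1 FPKM in 3 or more libraries were fitted as log2(FPKM + 1) with limma 3.58.1 in R 4.3.3 (group means of 8 groups, eBayes with trend and robust, 16 residual degrees of freedom), with 12 two-sided contrasts, Benjamini-Hochberg adjustment and calls at adjusted p under 0.05. The fit was tested on simulated data. Absolute depth is unknown.

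Named are the 10 members, up to 4 called genes with the lowest adjusted p from each pathway list, Nr1i3 and Cyp2b10, and the 3 genes most like each member (predicted genes left out). Some genes that this rule names are not reported here. Members and the 9 pathway and 9 marker lists were chosen with earlier results of these data known. Alternatives were a pseudocount of 0.1, rescaling by the median of ratios, a 5 FPKM filter or none, the replicate number as a factor, only the groups compared, each library left out, and the closing number of the read file name as a factor.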

Additional observations from a re-analysis of the deposited data

Results flagged for a closer look

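The change with a ligand differed between ages or between ligand and receptor pairs, by the contrast of the 2 changes in limma at an adjusted p under 0.05, for 15 cases among the 10 genes. These contrasts share corn oil groups.

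In wild type mice the change with TCPOBOP was higher at day 60 than at day 5 for Fst (2.66), Fgf21 (1.57), Inhba (1.23) and Lect2 (0.63). Fst and Inhba were above corn oil without overlap at day 60, and their groups overlapped at day 5 (log2 changes -0.50 and -0.37, the latter not called). Fgf21 was at most 0.741 FPKM in adults with or without TCPOBOP, and its difference was not called with a pseudocount of 0.1 (1.41, adjusted p = 0.199) or without the first day 5 corn oil library (1.25, adjusted p = 0.0555). In hCAR-TG mice the change with CITCO was higher at day 60 for Gdf15 (2.40) and lower for Enho (-0.99).

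At day 5 the change with CITCO in hCAR-TG mice minus that with TCPOBOP in wild type mice was -3.39 for Gdf15, 1.16 for Angptl4, 1.56 for Inhbe and 1.60 for Enho. At day 60 it was 1.5 for Angptl4, 1.02 for Enho, -0.88 for Lect2, -1.0 for Inhba and -2.34 for Fst. Receptor, ligand and an unstated dose differ together in these 9 contrasts and cannot be told apart. At day 5 the closing number of the read file name cannot be told apart from them either. Corn oil levels of adults also differed, with Cyp2b10 higher and Angptl4 lower in hCAR-TG than in wild type liver. The part of these starting levels was not tested.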

How the results depend on the processing

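Of 120 log2 changes (10 genes, 12 comparisons), 55 were called, 41 of them in every alternative run, and 14 were lost in at least 1. The replicate block kept all 55 calls and added 0, with 4343 genes called for TCPOBOP at day 5 (4408 without it). Same-numbered samples deviated together with r from -0.14 to 0.264. Samples with different numbers were not compared in this way, so these values cannot decide whether the numbers mark pairs. The closing number could not be fitted where it cannot be told apart from the comparison. The causes of the changes below were not tested, except that the stricter filter tests fewer genes.

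With the closing number as a factor, genes called were 4793 (CITCO day 5), 461 (CITCO day 60), 3292 (CITCO response between ages) and 109 (corn oil day 60 between genotypes), and members called were 4, 1 (CITCO day 5 and 60) and 0 (corn oil day 60). Log2 changes that reversed were Gdf15 0.35 and Angptl4 -0.20 (CITCO day 5), Fgf21 -0.07 and Fst 0.02 (CITCO day 60), Angptl4 0.47, Igfbp1 0.26 and Igfbp2 0.61 (CITCO response between ages) and Igfbp2 0.00 (corn oil day 60). Only the groups compared gave 596 genes and 1 member (CITCO day 5), and 191 and 230 genes (corn oil day 5 and 60). The filter at 5 FPKM gave 817 genes (corn oil day 5) and 5568 and 5688 genes (age, wild type and hCAR-TG). With a pseudocount of 0.1 Fgf21 was -0.03 (CITCO day 60), and Gdf15 -0.36 and Inhbe -0.04 (TCPOBOP response between ages). For corn oil day 5, 1 member was called with that pseudocount, Gdf15 (1.41, adjusted p = 0.03). Another 1 was called there with rescaling, Lect2 (-0.36, adjusted p = 0.0199). Rescaled, Inhbe was -0.02 (TCPOBOP response), Lect2 0.02 (CITCO response) and Igfbp1 -0.01 (corn oil day 5).

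Leaving out 1 library at a time gave these ranges. Corn oil day 5: genes 801 to 1745, members 0 to 2, Angptl4 -0.29 to 0.15, Fgf21 -0.61 to 0.33, Fst -0.36 to 0.07, Igfbp1 -0.37 to 0.39, Inhbe -0.12 to 0.31. Corn oil day 60: genes 336 to 742, members 1 to 2, Gdf15 -0.60 to 0.03. CITCO day 5: genes 1147 to 2633, Gdf15 -0.64 to 0.06, Igfbp2 -0.31 to 0.10, Inhba -0.02 to 0.56. CITCO day 60: Fgf21 -0.07 to 0.06, Fst -0.29 to 0.01, Inhba -0.32 to 0.12. CITCO response between ages: genes 814 to 1372, Angptl4 -0.36 to 0.19, Lect2 -0.12 to 0.11. TCPOBOP response between ages: Igfbp1 -0.30 to 0.46, Igfbp2 -0.44 to 0.06, Inhbe -0.18 to 0.24. Age in hCAR-TG: Angptl4 -0.15 to 0.40, Gdf15 -0.36 to 0.39. Day 5 difference between pairs: members 4 to 7.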

Other observations

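Libraries of newborns differed in markers of pancreas, intestine and blood cells. The 9 pancreatic acinar markers summed to 243 FPKM in 1 wild type corn oil library, to 334 in 1 TCPOBOP library and to 308 in 1 CITCO library of day 5, where the medians of those groups were 35.4, 34.3 and 8.13. Neutrophil markers summed to 1114 to 1451 FPKM in hCAR-TG newborns with corn oil and to 299 to 772 in wild type newborns with corn oil. Erythroid markers summed to 135.3 to 151.9 and to 38.85 to 69.88 FPKM in the same groups. In each of these 2 lists 7 of 7 tested markers were called higher in hCAR-TG newborns. In hCAR-TG newborns the intestinal marker Lypd8 was at 11.2 ± 5.09 FPKM with corn oil and 0.108 ± 0.117 with CITCO (SD, n = 3 each). The part of these markers in the values of the 10 genes was not tested.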
